A study of Homo sapiens with 18 samples.

Results

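Replication-dependent histone genes were examined in A549 cells, a human lung adenocarcinoma epithelial line, after exposure to Ludox silica nanoparticles (NPs). The members were the non-control probes of a 1-colour Agilent array whose gene name began with HIST1H, HIST2H, HIST3H or HIST4H. The rule found 64 genes, carried by 85 probes, among 30484 gene names and 41000 probes. By class there were 6 H1 genes, 15 H2A, 17 H2B, 12 H3 and 14 H4 genes. By cluster, 54 were HIST1 genes on chromosome 6, 6 were HIST2 and 3 were HIST3 genes on chromosome 1, and HIST4H4 lay on chromosome 12.

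The 18 arrays formed 6 groups of 3 samples, lettered A to C. Cells received sodium-stabilised SM30 NPs (9 nm in diameter) or ammonium-stabilised AS30 NPs (18 nm) at 0.02 mg/mL for 2 h without serum, then recovered in complete medium. SM30 cells recovered for 3 h, and AS30 cells for 3 h or 22 h. Each exposed group had its own controls, which went through every step without NPs. SM30 at 22 h was not analysed here. The methods call the 3 samples of a group biological replicates, without saying how they were kept apart, and the p-values measure the spread between them. The 6 epithelial markers (KRT7, KRT8, KRT18, KRT19, EPCAM and CDH1) were well above background on all 18 arrays. Of the leukocyte, endothelial and fibroblast markers given here, PTPRC, PECAM1, CDH5 and COL3A1 had no probe left after the filter on dim spots. CD3E, VWF and COL1A1 had 1 probe each, and those of CD3E and COL1A1 were well above background on all 18 arrays and that of VWF on 6.

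Replication-dependent histones are made in S phase, when the new DNA has to be packed. The core histones H2A, H2B, H3 and H4, form the octamer around which DNA is wound, and the linker histone H1 sits where DNA enters and leaves it. Their messages end in a stem-loop bound by SLBP in place of a poly(A) tail, and are degraded when replication stops, although several of these genes, HIST1H1C, HIST1H2AC, HIST1H2BD, HIST1H2BK and HIST2H2BE among them, can also give longer polyadenylated messages. The labelling kit primes on poly(A) tails, so the share of each histone message that it captured is not known. Genes of a class are nearly identical in their coding parts, and a probe may read several of them, so each value below belongs to a probe and is uncertain for the gene. These are bulk samples: fewer cells in S phase and less message per cell cannot be told apart.

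The promoters of 3 genes whose probes passed the test after AS30 at 22 h are shown first, with those of an H3 and an H4 gene that had ratios on the other side of 0. They are the 150 bases before the RefSeq start, read 5′ to 3′ on the gene's strand (GRCh38.p14). Capitals mark CCAAT, the TATA core TATAA and the octamer ATGCAAAT, each on either strand. HIST1H1C (now H1-2) lies at chr6:26056471-26056620 on the minus strand, HIST2H2AA3 (H2AC18) at chr1:149842751-149842900 (minus), HIST2H2BE (H2BC21) at chr1:149886683-149886832 (minus), HIST1H3H (H3C10) at chr6:27809901-27810050 (plus) and HIST1H4D (H4C4) at chr6:26189113-26189262 (minus). The called HIST2H2AA3 probe is listed on the plus strand in hg18, opposite to the promoter shown. Whether it reads this gene or a near-identical copy was not tested.
HIST1H1C: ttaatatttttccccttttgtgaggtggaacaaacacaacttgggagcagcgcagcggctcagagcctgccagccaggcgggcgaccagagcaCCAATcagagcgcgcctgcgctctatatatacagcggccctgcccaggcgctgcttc
HIST2H2AA3: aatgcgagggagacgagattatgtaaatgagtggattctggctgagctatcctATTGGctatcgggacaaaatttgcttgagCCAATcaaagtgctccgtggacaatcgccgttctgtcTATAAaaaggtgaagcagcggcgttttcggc
HIST2H2BE: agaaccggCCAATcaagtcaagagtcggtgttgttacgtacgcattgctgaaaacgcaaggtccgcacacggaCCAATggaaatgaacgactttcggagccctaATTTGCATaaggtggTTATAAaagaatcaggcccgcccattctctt
HIST1H3H: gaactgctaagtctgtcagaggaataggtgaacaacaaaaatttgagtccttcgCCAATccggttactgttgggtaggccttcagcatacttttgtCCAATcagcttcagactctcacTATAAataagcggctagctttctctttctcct
HIST1H4D: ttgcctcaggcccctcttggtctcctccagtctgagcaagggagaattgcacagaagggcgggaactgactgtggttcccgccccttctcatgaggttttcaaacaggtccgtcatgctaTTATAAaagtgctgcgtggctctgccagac

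Promoter windows were found for 59 of the 64 genes, and all 250 bases before the start were searched. CCAAT was in every window of the 6 H1, 14 H2A, 17 H2B and 10 H3 genes, but in 3 of 12 H4 windows, against 32% of all 35116 promoters in the table. The octamer ATGCAAAT was in 11 of 14 H2A and 13 of 17 H2B windows. It was in 1 of 10 H3 windows and in no H1 or H4 window, against 1.63% of all promoters. The H3 window was that of HIST1H3D, whose window in the table is the same as that of HIST1H2AD. TATAA was in 55 of 59 histone windows, against 18.9% of all. These are matches of letters, not sites of binding, and H2A and H2B genes often lie head to head, so that their windows can overlap.

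After AS30 at 22 h, 3 of 73 histone probes passed the test, and all 3 were higher than in controls (limma on log2 ratios of exposed over control arrays of the same letter, adjusted p below 0.05 after Benjamini-Hochberg). Over all probes 3.58% were called, and 2.54% were called higher, so 3 of 73 is near the share over all probes. The probes were for the linker histone HIST1H1C, the H2A gene HIST2H2AA3 and the H2B gene HIST2H2BE. Counted as genes with 1 probe each, the brightest, 2 of 60 were called, against 3.83% of all genes.

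The largest of these changes was at a HIST2H2BE probe. At 22 h the exposed arrays had normalised log2 signals of 9.10, 8.55 and 8.62, in the order A to C, and the controls 6.74, 7.21 and 7.56. The groups did not overlap, and the lowest exposed value lay above the highest control value. The difference was 1.59 on the log2 scale (SE 0.23, adjusted p = 0.020 by limma), a 3.00-fold ratio, and each of the 3 pairs was above 0 (2.36, 1.34 and 1.06). The same probe read 0.55 (SE 0.23) after SM30 and 0.65 (SE 0.23) after AS30 at 3 h, with adjusted p = 0.18 and 0.14. It was well above background on all 18 arrays.

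HIST2H2AA3, an H2A gene that has a near-identical copy beside it, had log2 signals of 13.46, 13.15 and 13.36 in cells exposed to AS30 at 22 h. The controls read 12.40, 12.41 and 12.40. The controls hardly differed (SD 0.0068, n = 3), and the exposed arrays were all above them. The difference was 0.92 (SE 0.18, adjusted p = 0.039 by limma), a 1.89-fold ratio. The probe also did not overlap between groups after SM30, where the difference was 0.53 (SE 0.18, adjusted p = 0.12), whereas after AS30 at 3 h the groups overlapped (0.46, SE 0.18, adjusted p = 0.18). The AS30 exposed cells averaged 13.32 at 22 h and 13.18 at 3 h, and their controls 12.40 and 12.73.

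HIST1H1C, which encodes linker histone H1.2, had log2 signals of 13.55, 13.12 and 13.61 after AS30 at 22 h and 13.05, 12.61 and 12.80 in controls. The lowest exposed array, B, exceeded the highest control, A, by a narrow margin, and B was the lowest in both groups. The difference was 0.60 (SE 0.13, adjusted p = 0.044 by limma), a 1.52-fold ratio. After AS30 at 3 h it was 0.04 (SE 0.13), and after SM30 it was 0.29 (SE 0.13, adjusted p = 0.20), with exposed arrays at 13.33, 13.27 and 13.30 against 13.01, 12.98 and 13.03. The AS30 exposed cells averaged 13.43 at 22 h and 13.25 at 3 h, and their controls 12.82 and 13.22.

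**Figure D1:**
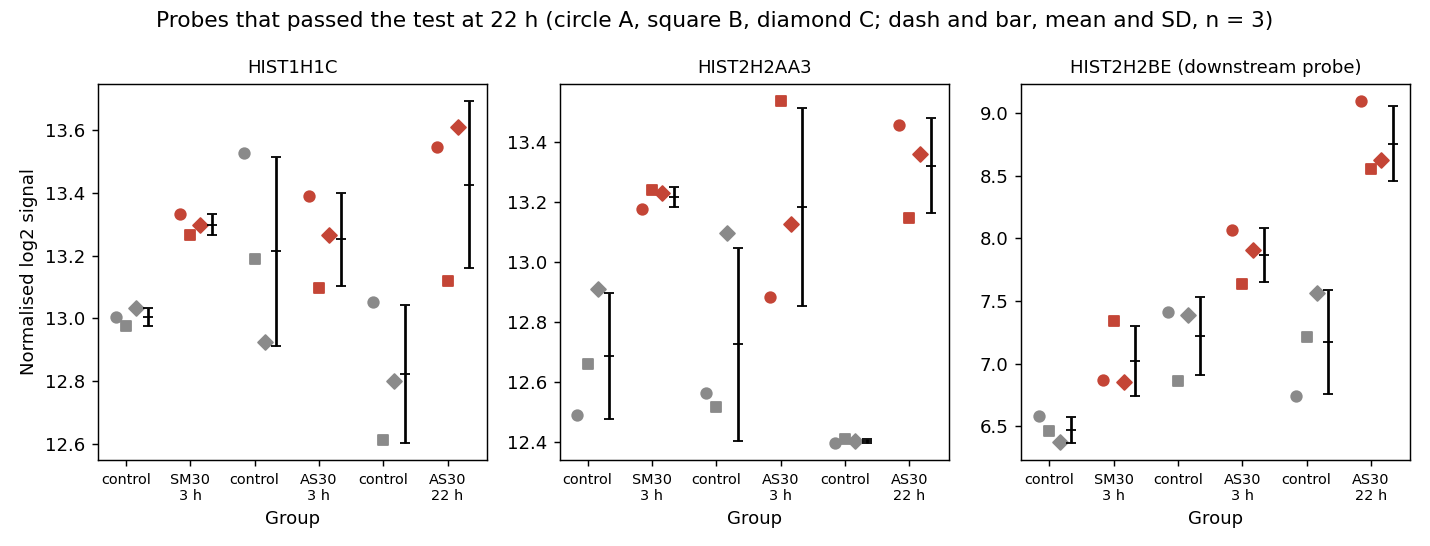
Normalised log2 signal on the y axis of the 3 histone probes that passed the test after AS30 at 22 h, in the 6 groups on the x axis. Points are arrays (grey, control; red, exposed) with the mean and SD of 3; at 22 h every exposed point lies above every control point, and the HIST2H2BE probe shows the widest step (8.76 against 7.17 on average).

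These calls rested on few arrays. The 22 h exposed arrays A, B and C shared a slide with control C only. With that slide's arrays alone, the 3 differences were 1.19 for HIST2H2BE, 0.92 for HIST2H2AA3 and 0.63 for HIST1H1C, and with slide as a fixed block none passed the test (adjusted p = 0.091, 0.21 and 0.35 by limma). HIST1H1C and HIST2H2AA3 also did not pass when any 1 of the 3 pairs at 22 h was left out (adjusted p from 0.068 to 0.15 and from 0.056 to 0.19 by limma), and HIST2H2BE did not pass without pair A (1.20, adjusted p = 0.089). Exposed arrays at 22 h had 56.9% to 67.0% of spots well above background against 51.9% to 58.4% in their controls, and the part of this in the results was not tested.

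Probes of the same gene did not always move together. Of the 3 HIST2H2BE probes, the brightest (chr1:148124654-148124713 in hg18, minus strand) read 0.25 (SE 0.12, adjusted p = 0.28) at 22 h. Its exposed signals were 10.36, 10.17 and 10.24 against 9.89, 10.05 and 10.09. The probe that was called lies 1616 bases further downstream (chr1:148123038-148123097), and a dim probe between them, 966 bases downstream, had no control array with a usable signal at 22 h, while it read 5.92, 3.22 and 5.61 in exposed cells. HIST2H2BE is known for a longer polyadenylated message, but which message each probe read was not measured.

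For HIST2H2AA3 the second probe, 477 bases away, read 0.96 (SE 0.35) at 22 h, close to the first, but did not pass (adjusted p = 0.15). HIST1H2AC, an H2A gene, gave 0.57 (SE 0.18, adjusted p = 0.11) at a probe of a longer Ensembl transcript, while at the dim RefSeq probe 14419 bases from it no control was well above background and no fold is given. Among the 13 genes with several measured probes, the measured ratios, dim probes included, lay on both sides of 0 in 6 genes at 22 h, in 3 after AS30 at 3 h and in 4 after SM30.

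**Figure D2:**
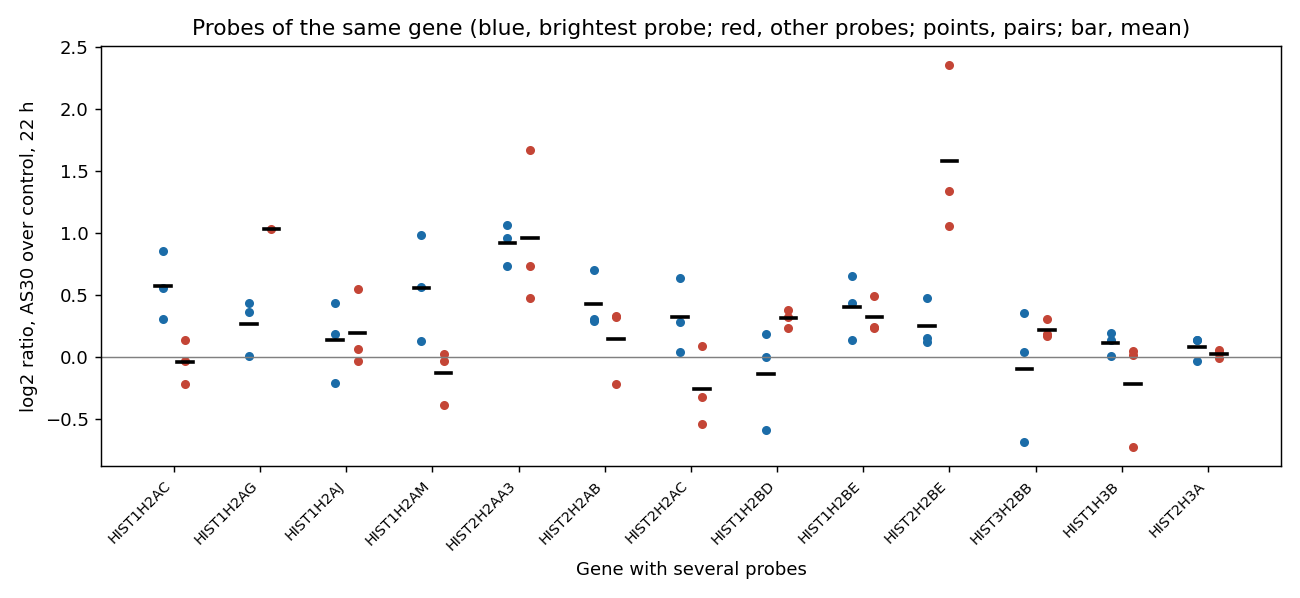
Log2 ratio of AS30 over control at 22 h on the y axis for the 13 histone genes with several kept probes on the x axis. Points are pairs of arrays and bars their mean (blue, brightest probe of the gene; red, the others); the downstream HIST2H2BE probe stands at 1.59 while its brightest probe stands at 0.25, and the middle HIST2H2BE probe has no ratio.

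By class, the 4 measured H1 genes had ratios above 0 at 22 h after AS30, from 0.21 for HIST1H1E to 0.60 for HIST1H1C. Their class median was 0.38. After AS30 at 3 h the median was 0.04 (-0.29 to 0.11 over the alternatives), with HIST1H1B at 0.67 and HIST1H1D at -0.16. The HIST1H1B probe was not well above background on any AS30 3 h control, so its ratio there is a bound, at least 1.16-fold (adjusted p = 0.19 for the measured values). HIST1H1A and HIST1H1T, the latter testis-specific, had no probe left after the filter.

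After SM30 all 4 H1 genes were also above 0 (median 0.44), but no call was made. HIST1H1D read 11.76, 11.81 and 11.75 in exposed cells and 11.88, 10.87 and 10.74 in controls, so the groups overlapped through control A. The difference was 0.61 (SE 0.22, adjusted p = 0.13). HIST1H1E showed the same order, with controls at 10.71, 9.89 and 9.59 against 10.65, 10.30 and 10.48. Control A was read on another day than the other arrays of its slide, and without pair A the H1 median was 0.74. Exposed array A lay on the slide of all 3 controls, while exposed B and C lay on another slide. Pair A, within 1 slide, had an H1 median of -0.09, against 0.61 and 0.88 in B and C. Exposure and slide cannot be told apart in pairs B and C. Against the mean of the 3 controls, exposed A gave an H1 median of 0.54.

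The H2A genes had median ratios of 0.18 after SM30, 0.33 after AS30 at 3 h and 0.33 after AS30 at 22 h. At 22 h 13 of 15 were above 0, and 10 of the 14 measured in every pair were above 0 in all 3 pairs, against 22.6% of all genes. After HIST2H2AA3 the highest were HIST1H2AD at 0.64 (SE 0.22, adjusted p = 0.14) and HIST1H2AE at 0.63 (SE 0.19, adjusted p = 0.10). HIST1H2AE read 9.52, 9.05 and 9.51 against 8.53, 8.89 and 8.77, so the groups did not overlap. The medians in pairs A, B and C at 22 h were 0.60, 0.26 and 0.15, and within the shared slide the H2A median was 0.09.

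At 3 h after AS30 the H2A medians were 0.44, 0.74 and -0.13 in pairs A, B and C, a spread wider than their mean. HIST1H2AA, an H2A gene known from testis, was dim. Its exposed signals were 5.69, 5.96 and 5.56 and its controls 4.84, 4.51 and 5.30. No control was well above background, so the ratio is at least 1.23-fold, with measured means of 5.74 and 4.88 (adjusted p = 0.071). At 22 h it read -0.20 and after SM30 -0.18.

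Most H2B genes were above 0 at 22 h after AS30. Their median ratio was 0.35, 14 of 16 were above 0, and 12 of 16 were so in all 3 pairs, against 22.6% of all genes. An unadjusted p below 0.05 was found for 8 of 16, against 23.7% of all genes, yet the brightest probe of no H2B gene passed the test. HIST1H2BK had the highest value, 0.50 (SE 0.14, adjusted p = 0.089), from 12.56, 12.39 and 12.51 against 12.32, 11.69 and 11.95. HIST1H2BH read 12.21, 12.09 and 12.13 against 11.66, 11.65 and 11.78, a difference of 0.45 (SE 0.10, adjusted p = 0.056). HIST1H2BL read 12.68, 12.57 and 12.63 against 12.07, 12.14 and 12.34 (0.45, SE 0.11, adjusted p = 0.061). The exposed arrays of all 3 lay above all their controls. HIST1H2BD and HIST3H2BB were below 0, at -0.14 and -0.10, and both were read there by probes whose listed direction is opposite to that of their RefSeq probe, which read 0.31 and 0.22.

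Over H2B probes at 22 h, 15 of 20 measured on all 6 arrays had exposed values that did not overlap the controls and lay above them, as did 9 of 20 H2A probes and 1 of 4 H1 probes. No H3 probe of 14 and no H4 probe of 12 did so in either direction. Over all probes 12.8% lay above and 11.1% below without overlap. H2B probes may read each other's messages, which was not tested, so they are not counted as independent. After SM30 the H2B median was 0.03, with 2 of 20 probes not overlapping and above, against 19.2% of all probes. HIST1H2BO had the highest SM30 ratio of any histone gene (0.91, SE 0.44, adjusted p = 0.24), but its controls read 11.46, 11.43 and 8.58, and pair C alone gave 2.69 while A and B gave -0.06 and 0.11.

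**Figure D3:**
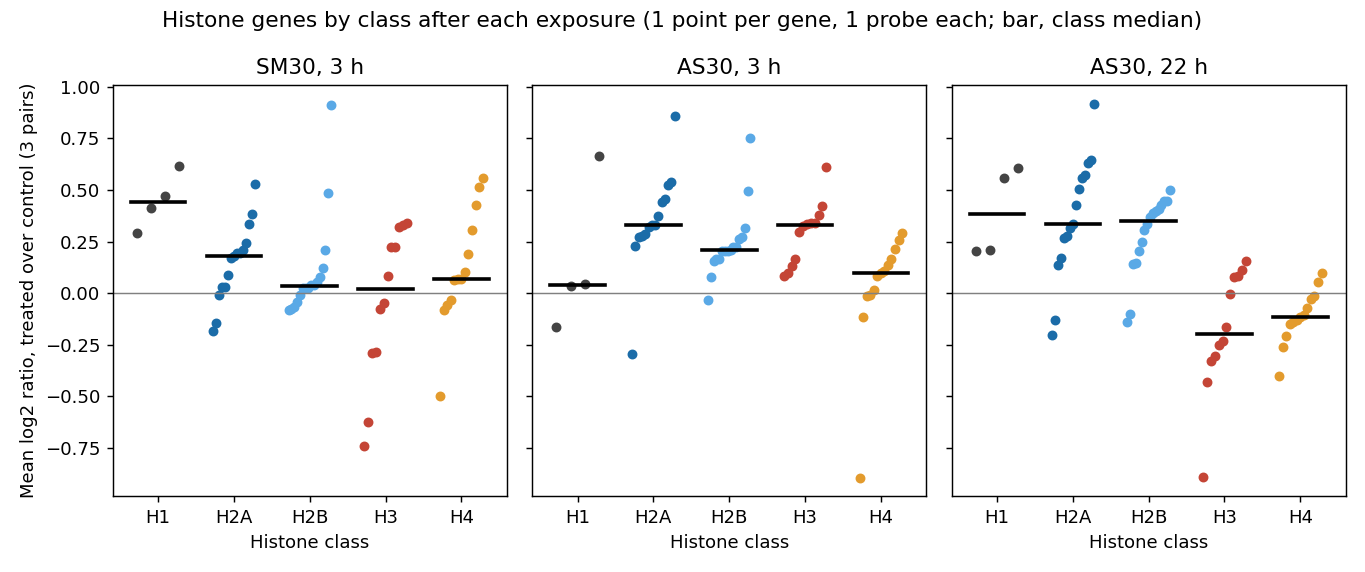
Mean log2 ratio of exposed over control on the y axis for each measured histone gene (1 probe each), by class on the x axis, after SM30 at 3 h, AS30 at 3 h and AS30 at 22 h. Bars are class medians; at 22 h the H1, H2A and H2B medians stand at 0.38, 0.33 and 0.35, and the H3 and H4 medians at -0.20 and -0.12.

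The H3 genes had a different order. After AS30 at 3 h all 12 were above 0, with a median of 0.33, and 11 of 12 were above 0 in all 3 pairs, against 24.2% of all genes. The exposed arrays there all lay on 1 slide and their controls on another, and the letters were not shown to pair. At 22 h 8 of 12 were below 0 and the median was -0.20, and 4 of 12 were below 0 in every pair, against 22.3% of all genes. All 12 H3 genes had a lower ratio at 22 h than at 3 h, but the difference passed the test for none (adjusted p from 0.16). After SM30 6 were above and 6 below 0.

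HIST1H3J showed the lowest ratio at 22 h, -0.89 (SE 0.25, adjusted p = 0.085), and also after SM30, -0.74 (SE 0.25, adjusted p = 0.11). At 22 h its exposed signals were 10.74, 10.06 and 10.46 and its controls 11.96, 11.43 and 10.54. Control C, the one on the same slide as the exposed arrays, was within 0.09 of its exposed partner, and the groups overlapped. After SM30 they did not overlap, with 12.88, 11.90 and 12.12 against 13.14, 12.91 and 13.07. Exposed A, at 12.88, shared a slide with the 3 controls, while B and C lay on another slide. Pairs A, B and C gave -0.27, -1.01 and -0.95. At 3 h after AS30 the gene read 0.16 (SE 0.25).

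HIST1H3F, HIST1H3H and HIST1H3D were the other H3 genes among the lowest. HIST1H3H read 8.45, 8.68 and 8.06 after AS30 at 22 h against 8.83, 8.80 and 8.48 (-0.31, SE 0.14), and 9.11, 9.17 and 9.05 at 3 h against 8.42, 9.07 and 8.87 (0.33, SE 0.14). HIST1H3D read 12.26, 12.38 and 12.07 at 22 h against 12.99, 12.81 and 12.19 (-0.43, SE 0.18). For HIST1H3F the 22 h value of -0.33 hid opposite pairs, -0.98 and -0.82 in A and B and 0.81 in C, because control C read 8.47 against 10.45 and 10.61 in A and B. At 22 h the adjusted p was 0.23 for HIST1H3H, 0.21 for HIST1H3D and 0.61 for HIST1H3F (limma).

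HIST1H3I had the highest H3 ratio after AS30 at 3 h, 0.61 (SE 0.16, adjusted p = 0.083), with 0.62, 0.68 and 0.54 in its pairs, and read -0.25 at 22 h. The second HIST2H3A probe had exposed values of 13.14, 13.41 and 13.17 against 12.63, 12.86 and 12.92 (0.44, SE 0.10, adjusted p = 0.064), the lowest adjusted p of any histone probe at 3 h, and read 0.02 at 22 h. Of 14 H3 probes, 8 lay above their controls without overlap at 3 h, against 13.2% of all probes.

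The 22 h values of H3 depended on which control arrays were used. Within the slide that held all 3 exposed arrays and control C, 8 of 12 H3 genes were above 0 and their median was 0.03. The H2B median there was 0.22 and the H4 median -0.17. That slide held no other 22 h control, so slide and control C cannot be told apart. At 3 h after AS30 exposed and control arrays lay on different slides. Only 22 h controls A and B linked those slides, so without them treatment and slide cannot be told apart at 3 h.

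**Figure D4:**
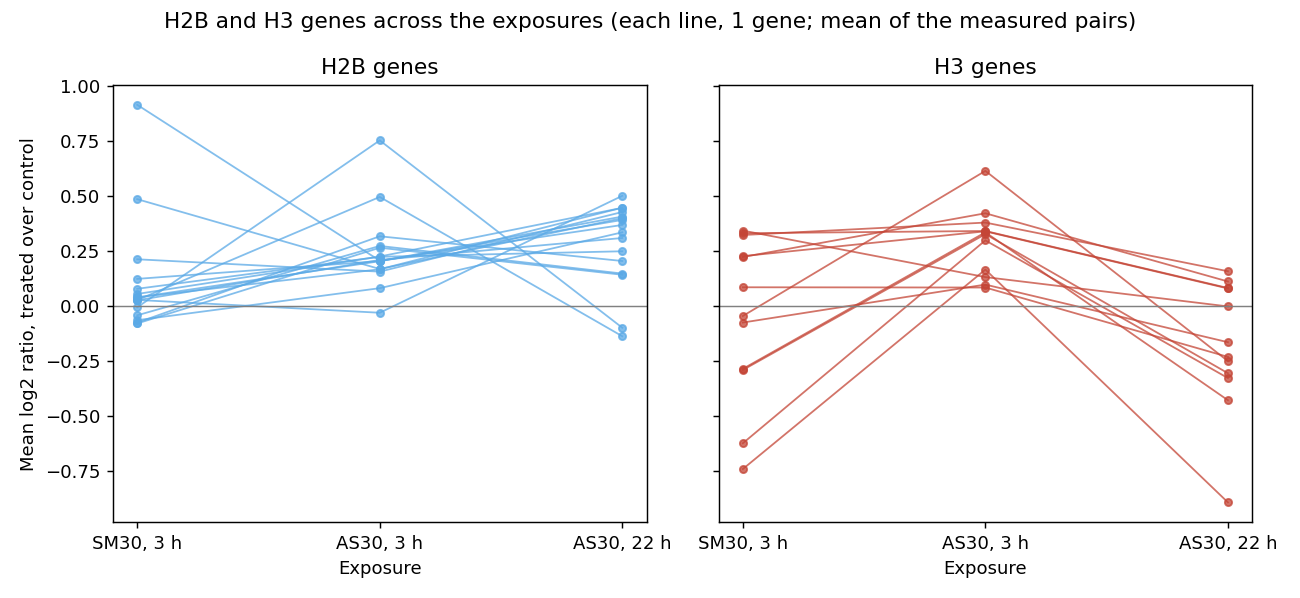
Mean log2 ratio of exposed over control on the y axis for each H2B gene (left) and each H3 gene (right), with the exposures on the x axis. Each line joins the values of 1 gene; all 12 H3 lines go down from AS30 3 h to AS30 22 h, while 11 of 16 H2B lines go up.

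The H4 genes had medians of 0.07 after SM30, 0.10 after AS30 at 3 h and -0.12 at 22 h, and each of these signs turned under some alternative (-0.14 to 0.24, -0.20 to 0.11 and -0.17 to 0.02). At 22 h 11 of 13 were below 0, yet none of the 12 measured in every pair was on the same side of 0 in all 3 pairs. HIST1H4D was lowest at 22 h, -0.40 (SE 0.18, adjusted p = 0.23), from 12.10, 12.69 and 11.58 against 12.52, 12.67 and 12.38. HIST1H4L had the highest SM30 value, 0.56 (SE 0.22, adjusted p = 0.15), with 15.03, 15.31 and 15.34 against 15.18, 14.39 and 14.44, so that again control A lay with the exposed arrays. HIST4H4, the gene on chromosome 12, gave the lowest value after AS30 at 3 h (-0.89), but neither its exposed nor its control arrays were well above background, and no fold is given. HIST1H4I read -0.12 at 3 h and -0.21 at 22 h.

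After SM30 no histone probe of 74 passed the test (limma), although 7.49% of all probes did, and 11 had an unadjusted p below 0.05 (14.9% against 25.1% of all probes), 10 of them above 0. As genes this was 0 of 60 against 7.67%. The lowest adjusted p was 0.096, for HIST1H3G, which read 13.12, 13.12 and 13.23 against 12.86, 12.79 and 12.83 (0.33, SE 0.10). Of 68 probes measured on all 6 arrays, 13 lay above their controls without overlap and 3 lay below, against 19.2% and 23.8% of all probes.

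After AS30 at 3 h no histone probe of 73 passed (limma), against 2.52% of all probes and, by gene, 0 of 59 against 2.62%. In all, 18 had an unadjusted p below 0.05 (24.7% against 24.4% of all probes), every one above 0. The ratios of 52 of 59 genes were above 0, compared with 51.7% of all genes, and the median was 0.22 against 0.02 over all genes. It was 0.32, 0.27 and 0.09 in pairs A, B and C. Of 71 probes, 18 lay above their controls without overlap and none below, against 13.2% and 10.6%. Exposed arrays had 62.5% to 67.1% of spots well above background and their controls 52.4% to 61.9%. The part of this in the results was not tested.

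At 22 h the median over 60 genes was 0.14, against -0.01 over all genes, and 37 were above 0. It was 0.28, 0.14 and 0.09 in pairs A, B and C. After SM30 it was 0.08 against -0.07 over all genes, and -0.02, 0.23 and 0.15 by pair, a spread that takes in 0.

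**Figure D5:**
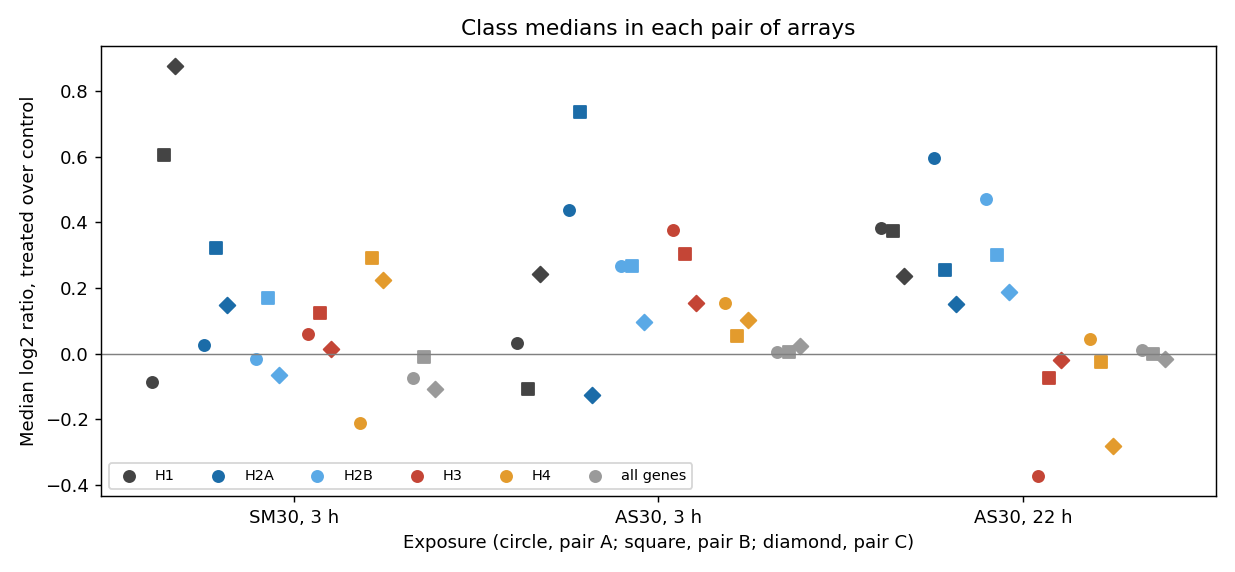
Median log2 ratio of each histone class and of all genes on the y axis, in each pair of arrays, by exposure on the x axis (circle, pair A; square, pair B; diamond, pair C). At 22 h the H1, H2A and H2B medians are above 0 in all 3 pairs and the H3 medians below 0 in all 3, while after SM30 the H1 median runs from -0.09 in A to 0.88 in C.

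No histone probe of 73 passed the test of the difference between SM30 and AS30 at 3 h (limma), where 0.0140% of all probes were called. Of the 73, 6 had an unadjusted p below 0.05 (8.22% against 14.6% of all probes). Leaving aside HIST1H2AA, whose AS30 ratio is a bound, the largest differences were -0.92 (SE 0.49) for HIST1H3F, -0.91 (SE 0.35) for HIST1H3J and 0.78 (SE 0.32) for HIST1H1D. The SM30 and AS30 arrays also lay on different slides, so particle and slide cannot be told apart.

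Between 22 h and 3 h after AS30 no histone probe of 72 passed either (limma), where 0.0285% of all probes were called, and 11 had an unadjusted p below 0.05 (15.3% against 16.9% of all probes). The called HIST2H2BE probe differed by 0.93 (SE 0.33, adjusted p = 0.22) and HIST1H1C by 0.57 (SE 0.18, adjusted p = 0.20). Between the 2 sets of AS30 controls, 22 h against 3 h, none of 73 histone probes passed (limma), against 1.30% of all probes, and 4 had an unadjusted p below 0.05 (5.48% against 14.9% of all probes). The median there was 0.01 over the probes. Between these controls the called probes read -0.39 (SE 0.16) for HIST1H1C, -0.32 (SE 0.18) for HIST2H2AA3 and -0.05 (SE 0.23) for HIST2H2BE. HIST1H2BK read -0.44 (SE 0.14). The adjusted p was 0.28, 0.42, 0.95 and 0.16 in that order (limma). How much of the 22 h ratios came from lower controls was not tested.

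Among genes that serve the same messages, 1 of 19 regulators of histone transcription and 3′ end processing passed the test, after SM30, where 7.67% of all genes did. HINFP, which drives H4 transcription, was higher after SM30 (0.53, SE 0.11, adjusted p = 0.025). SLBP, the stem-loop binding protein, read -0.24 (SE 0.15, adjusted p = 0.35) after SM30, -0.50 (SE 0.15, adjusted p = 0.10) after AS30 at 3 h and 0.04 (SE 0.15) at 22 h. NPAT, the coactivator that links cyclin E to histone transcription, read 0.64 (SE 0.32, adjusted p = 0.26), -0.12 and -0.01.

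None of 13 histone chaperones and none of 11 replication-independent histones passed the test in an exposure. The chaperone medians were -0.21, -0.22 and -0.20 after SM30, AS30 3 h and AS30 22 h. CHAF1A and CHAF1B, subunits of the factor that loads H3 and H4 on new DNA, read -0.81 and -0.61 after AS30 at 3 h, with adjusted p = 0.051 and 0.059. Among 25 genes of the G1/S transition and DNA replication, 4 fell after SM30, 1 after AS30 at 3 h and none at 22 h, where 7.67%, 2.62% and 3.83% of all genes were called in either direction. Those after SM30 were UHRF1 (-1.03), CDC6 (-0.74), FEN1 (-0.66) and MCM3 (-0.53), with adjusted p = 0.039, 0.013, 0.014 and 0.035, UHRF1 being measured in 2 of 3 pairs. CDC6, which helps load the replicative helicase, also fell after AS30 at 3 h (-0.68, adjusted p = 0.036). None of the 25 was above 0 after SM30, 3 were after AS30 at 3 h and 2 at 22 h. Over all genes 41.4%, 51.7% and 48.4% were above 0 in the same order. Of the histone genes, 42 of 60, 52 of 59 and 37 of 60 were above 0. In the list of 5 histones known for polyadenylated messages, all of them members, 1 passed at 22 h by its brightest probe, HIST1H1C, and the median was 0.50, against -0.01 over all genes. The list median was 0.03 after SM30 and 0.04 after AS30 at 3 h, against -0.07 and 0.02 over all genes. Between the AS30 controls, 22 h against 3 h, it was -0.31. HIST1H2BD enters with its brightest probe, of opposite listed direction (-0.14 at 22 h, against 0.31 at its RefSeq probe). HIST2H2BE is also in that list and enters it with its brightest probe (0.25), not with the downstream probe that passed. Among the 6 epithelial markers, 1 passed at 22 h, where 3.83% of all genes were called. It was KRT19 (1.21, adjusted p = 0.023 by limma), whose exposed and control arrays overlapped. Only 2 of the 6 were above 0 there, with a median of -0.07. CDH1 read -1.46 and EPCAM -0.61 (adjusted p = 0.14 and 0.20 by limma).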

How the data were processed

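Total RNA of 18 A549 samples was labelled with Cy3 and hybridised to Agilent 1-colour arrays. The authors deposited scanner files with spot intensity (Agilent Feature Extraction 10.5.1.1, already background-corrected) and a table of quantile-normalised intensity. From the deposited processed intensity, log2 values of 43376 non-control spots per array were quantile-normalised, spots not positive and significant or marked as outliers were set to missing, replicate spots were averaged, and probes missing on more than 33% of arrays were removed, leaving 28665 of 41000 probes and 74 of 85 histone probes. Of the histone probes, 67 to 75 were well above background per array, and the number of arrays limits the precision.

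Each exposed array was divided by the control of its letter, and the 9 log2 ratios were fitted as 3 classes with limma 3.58.1 (R 4.3.3). P-values were adjusted over all probes tested, with a threshold of 0.05. For gene counts, the probe with the highest mean signal stood for a gene. Named were every called histone probe, the 4 highest and 4 lowest genes per exposure measured in all pairs, called genes of the other lists, SLBP and NPAT, and the probes of genes with several. Others named in the text were chosen after their values were seen. A probe not well above background on any array of a group has only a bound. The script was tested on simulated data. Members and lists were chosen with earlier results of these data known. RefSeq names (GRCh38.p14) matched 76 of 85 probes by accession, and promoters come from RefSeq. 1 marker of another cell type is not reported here. Alternatives covered normalisation, background, dim and outlier spots, pairing, slide, probe choice, testis-specific members, left-out pairs and an F-test.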

Additional observations from a re-analysis of the deposited data

Results flagged for a closer look

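Only the called histone probes and the 4 highest and 4 lowest genes per exposure were searched here. For 5 of them, all pair ratios of an exposure lay on 1 side of 0 and all of another on the opposite side. The share of all genes that do so was not computed. HIST1H3J differed by -0.91 between SM30 and AS30 at 3 h and by -1.06 between AS30 at 22 h and at 3 h, with adjusted p = 0.30 and 0.21 for the difference itself (limma). HIST1H3H differed by -0.62 and -0.63 in the same comparisons (adjusted p = 0.26 and 0.20). HIST1H3F differed by -0.92 between SM30 and AS30 at 3 h (adjusted p = 0.42), and HIST1H3D by -0.76 between AS30 at 22 h and at 3 h (adjusted p = 0.22). For HIST1H2AA the measured values gave -1.04 between SM30 and AS30 at 3 h (adjusted p = 0.24), but none of its AS30 3 h controls was well above background, so its AS30 ratio is a bound of at least 1.23-fold and the difference has no exact size. SM30 and AS30 at 22 h were each compared with AS30 at 3 h and not with each other, so AS30 at 3 h enters every difference by design. In all of them AS30 at 3 h was the exposure above 0, and 4 of the 5 genes are H3 genes. The genes searched had been picked by these same ratios, so this is not read as a trait of H3. Each of the AS30 comparisons shares the AS30 3 h arrays, whose exposed and control samples lay on different slides.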

How the results depend on the processing

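The medians over all histone genes stayed above 0 and within the spread of the pairs in every alternative run, from 0.03 to 0.19 after SM30, 0.12 to 0.31 after AS30 at 3 h and 0.09 to 0.19 at 22 h. The H2B median at 22 h ran from 0.22 to 0.38 and the H3 median from -0.25 to 0.03, the latter with slide as a fixed block, which equals the value within the slide. The medians of H4 in each exposure, of H1 after AS30 at 3 h (-0.29 to 0.11) and of H2B after SM30 (-0.04 to 0.08) turned sign under 1 to 3 alternatives each. Counts of calls moved more, and the cause was not tested unless named. For AS30 at 22 h (2 genes, 3 probes), genes called were 1 with 75th percentile scaling or the mean of a gene's probes, 6 (7 probes) with normexp, 0 (1 probe) with all spots kept, 4 (5 probes) with the well-above-background flag, 4 with probes measured on all 18 arrays, 0 (0 probes) with slide as a fixed block and 8 (9 probes) with it as a random block. For SM30 (0), they were 4 (5 probes) with normexp, 1 (1 probe) with the random block and 2 (3 probes) by the F-test over the exposures, which asks for a change in any of them. For AS30 at 3 h (0), they were 8 (11 probes) with the random block, 2 (3 probes) by that F-test, and 0 (1 probe) with the well-above-background flag. Between the AS30 controls 1 probe was called with no removal of probes with missing values. The random block used a correlation within slides of -0.084. Its added calls are not read as calls that held after allowing for slide.

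Without the replicate block, as 18 arrays in 6 groups, 5 genes (6 probes) were called at 22 h, 1 gene (2 probes) after AS30 at 3 h and none after SM30. Same-letter arrays deviated together weakly, with correlations from -0.09 to 0.48, so the letters were not shown to pair. Ratios over the mean of the 3 controls leave out the controls' own spread, and gave 15, 22 and 22 genes (19, 29 and 27 probes) after SM30, AS30 3 h and AS30 22 h, 7 genes (7 probes) between SM30 and AS30, and 9 genes (12 probes) between 22 h and 3 h. Leaving out a pair gave 0 to 2 genes (0 to 2 probes) for SM30, 0 to 6 (0 to 8) for AS30 at 3 h, with 6 reached without pair C, 0 to 2 (0 to 3) at 22 h and 0 to 1 (0 to 1) between the controls. The HIST2H2BE probe passed in 19 of 21 alternatives and HIST1H1C and HIST2H2AA3 in 11 each. The latter pair of calls was lost without any 1 of the 22 h pairs. The HIST2H2BE call was lost without pair A at 22 h (adjusted p = 0.089 by limma) and with the fixed slide block.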

Other observations

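HIST3H3, known as a testis-specific H3 gene, was read by a probe that was well above background on all 18 arrays, with log2 signals from 15.69 to 16.27, while the probes of HIST1H1T and HIST1H2BA, also known from testis, were removed as dim. Its ratios were -0.08, 0.10 and -0.17 after SM30, AS30 at 3 h and AS30 at 22 h (adjusted p = 0.76, 0.68 and 0.50 by limma).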
